A study of Rattus norvegicus with 8 samples.

Results

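The 8 genes described here belong to the machinery by which cells take up dying cells and debris, and were followed in rat astrocytes: the receptors Megf10, Mertk, Axl and Cd36, the bridging ligands Gas6 and Pros1, the adaptor Gulp1, and Gpnmb. The set is given as a list of gene names with no threshold on a measured value, though it was drawn up with earlier results of these data known, and holds 8 of the 28546 gene entries counted by RNA-seq. Of these 8, 7 passed the filter on low counts and were tested, among 14445 tested entries, and Cd36 did not pass. The cells were astrocytes from Sprague Dawley rat pups, and every group met 12-273 BM melanoma cells or their products. In the sh-APP group (n = 3 libraries) the melanoma cells carried a hairpin against APP, the gene of the amyloid precursor protein. In the anti-Abeta group (n = 3) the melanoma cells carried a scrambled hairpin, and an amyloid beta antibody was present. In the control group (n = 2) the melanoma cells carried the scrambled hairpin and no antibody is named. The hairpin, scrambled or not, was thus in the melanoma cells of all 3 groups, from a single melanoma line, and the labels name 1 hairpin against APP. No group of astrocytes without melanoma exposure was analysed here. The labels disagree on the exposure, naming in different places a co-culture, conditioned medium of melanoma cells for 24 h, and medium passed from astrocytes to melanoma cells. No label says that replicate libraries are separate cultures, so each p-value reflects the spread among these libraries, which may be technical.

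A cell that engulfs a dying neighbour recognises phosphatidylserine, a lipid that healthy cells keep on the inner face of the membrane. Some receptors bind the lipid or other debris directly, and others bind it through a secreted bridge. Mertk, Axl and Tyro3 form the TAM family of receptor tyrosine kinases, and Gas6 and Pros1 (protein S) are the bridges that carry phosphatidylserine to them. Gas6 binds all TAM receptors and is the ligand of Axl, whereas Pros1 acts through Mertk and Tyro3. Megf10 is a receptor of the Draper and CED-1 family, and with Mertk it is known for the removal of synapses by mouse astrocytes. Gulp1 is a cytosolic adaptor that binds the tail of receptors of this family. Gpnmb is a membrane glycoprotein of phagosomes and melanosomes, and Cd36 is a scavenger receptor for oxidised lipids and fibrillar amyloid.

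The promoters of the 4 genes that passed the test in both arms are shown here, so that the stretch before each start can be read beside its level. Each run is the 250 bases before the annotated start, 5′ to 3′, from RefSeq on the GRCr8 assembly, a later build than the rn6 named in the submitters' processing notes. Capitals mark matches to 6 motifs searched on both strands: the E-box CACGTG, the M-box core CATGTG bound by MITF-type factors, the element TGANTCA of the factor AP-1, the GC box GGGCGG bound by Sp-type factors, the core promoter element TATAAA, and the motif CCAAT bound by NF-Y.
Gas6 promoter, chr16:82747426-82747675, plus strand: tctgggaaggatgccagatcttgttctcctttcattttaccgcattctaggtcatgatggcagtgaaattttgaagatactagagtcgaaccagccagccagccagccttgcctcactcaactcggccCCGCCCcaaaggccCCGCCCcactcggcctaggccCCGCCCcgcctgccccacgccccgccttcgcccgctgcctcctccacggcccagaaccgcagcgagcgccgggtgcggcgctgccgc
Pros1 promoter, chr11:13677049-13677298, plus strand: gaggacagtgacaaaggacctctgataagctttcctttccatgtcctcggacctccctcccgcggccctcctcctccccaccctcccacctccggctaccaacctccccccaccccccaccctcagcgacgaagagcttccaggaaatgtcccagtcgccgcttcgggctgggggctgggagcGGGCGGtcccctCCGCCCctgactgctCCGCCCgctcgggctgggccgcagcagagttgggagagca
Gulp1 promoter, chr9:54114653-54114902, plus strand: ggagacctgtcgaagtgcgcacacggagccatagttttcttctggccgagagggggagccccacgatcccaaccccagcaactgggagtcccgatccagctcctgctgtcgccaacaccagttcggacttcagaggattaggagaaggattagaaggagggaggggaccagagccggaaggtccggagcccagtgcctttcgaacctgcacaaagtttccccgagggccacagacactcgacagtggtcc
Gpnmb promoter, chr4:79340878-79341127, plus strand: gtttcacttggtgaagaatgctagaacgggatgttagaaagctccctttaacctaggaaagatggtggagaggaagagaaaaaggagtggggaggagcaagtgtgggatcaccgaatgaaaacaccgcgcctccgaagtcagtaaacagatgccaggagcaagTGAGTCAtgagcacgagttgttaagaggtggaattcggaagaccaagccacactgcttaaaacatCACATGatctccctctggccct
The Gas6 window held 3 GC boxes, which begin 122, 108 and 87 bases before the start. The Pros1 window also held 3, at 67, 55 and 40 bases. A GC box was present in 30.5% of all 33469 promoter windows of that length, so its presence in both ligand genes is common. The Gpnmb window held none of these, and instead an AP-1 element at 87 bases and an M-box core, read on the reverse strand, at 22 bases. AP-1 elements were in 6.34% of all windows and M-box cores in 12.1%. In the Gulp1 window none of the 6 motifs was found. By base composition the Gpnmb window was the poorest in G and C of the 4 (48.8%), against 65.2% for Gas6, 68.4% for Pros1, 60.4% for Gulp1 and a median of 51.2% over all windows. A match describes the letters and shows no binding. Of the 8 genes and the relatives Tyro3 and Mfge8, 9 of 10 had an entry, and Megf10 had none.

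The libraries held 34250464 to 47831595 counts each. At this depth counting error is small for every member of the set except Cd36, and the spread between libraries sets the precision. It is not small for some marker genes named below, such as Tyrobp, Csf1r and Kdr, with 131, 111 and 79 reads over all 8 libraries. Levels are given as CPM, counts set to a common total for every library after TMM scaling, which balances the libraries over most genes. Its factors were 1.04 to 1.06 in sh-APP, 0.99 to 1.03 in anti-Abeta and 0.90 to 0.92 in control libraries, so the scaling itself differed between groups. Genes differ in length, so CPM values are compared here between libraries and not between genes. Rat App in the astrocytes stood at 590 to 648 CPM in sh-APP, 514 to 576 CPM in anti-Abeta and 559 and 587 CPM in control libraries. That gene was not the target of the hairpin, so it does not check the labels, and no label check of the knockdown could be made from the astrocytes. Anti-Abeta replicate 2 stood apart from its group: its pairs with the other anti-Abeta libraries gave a chi-square per degree of freedom of 30.5 and 45.4 against counting noise, and the other pairs within groups gave 16.9 to 20.2.

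Astrocyte markers summed to 18916 to 21896 CPM in sh-APP, 15142 to 16474 CPM in anti-Abeta and 17053 to 17657 CPM in control libraries, and the 14 listed astrocyte markers were all tested. In sh-APP 9 of them were higher and 1 lower, with the filament gene Gfap at 1.17 ± 0.11 and the gap junction gene Gja1 at -0.78 ± 0.11 (log2 fold change and SE). In anti-Abeta 4 were higher and 3 lower, with Gfap at 0.36 and Gja1 at -0.48. Over all tested genes 25.8% were higher and 27.9% lower in sh-APP, and 12.7% and 16.6% in anti-Abeta. Microglia and macrophages, the professional engulfing cells of the brain, had little signal. Their 13 listed markers in the table summed to 11.7 to 14.5 CPM in sh-APP, 13.1 to 22.7 CPM in anti-Abeta and 12.9 to 16.2 CPM in control libraries. Most of this was Cd68, a lysosomal gene, at 10.4 ± 1.62, 16.1 ± 4.83 and 13.3 ± 2.35 CPM in the sh-APP, anti-Abeta and control groups (SD). The microglial fractalkine receptor Cx3cr1 had no count in any library, and the means of Aif1, P2ry12, Ptprc and Trem2 were at most 0.14 CPM in every group. Of 5 tested markers Tyrobp passed in sh-APP against control, at 0.61 CPM in sh-APP, 0.35 CPM in anti-Abeta and 0.083 CPM in control libraries (log2 fold change 2.84 ± 0.79, edgeR adjusted p = 0.00882). Csf1r, which did not pass, had 0.43, 0.36 and 0.097 CPM in those groups, the same order as Tyrobp. Trem2 (0.14, 0.065 and 0.027 CPM) and Ptprc (0.14, 0.034 and 0 CPM) shared it. So did C1qa (0.13, 0.024 and 0 CPM) and C1qb (0.14, 0.014 and 0 CPM). These last were too low to be tested, with 20 to 28 reads each over all libraries. Aif1, P2ry12, C1qc, Tmem119, Fcer1g and Cd68 did not have that order. The part of these astrocyte and microglia marker changes in the results for the engulfment genes was not tested. Fewer cells of a type and less RNA per cell cannot be told apart in such bulk libraries.

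The hairpin against APP addressed whether melanoma cells that make less of the precursor change the astrocytes. In sh-APP against control, 5 of the 7 tested engulfment genes passed edgeR's quasi-likelihood test at an adjusted p under 0.05, where 53.7% of all tested genes did. Of these 5 genes, 4 were lower (Gulp1, Gpnmb, Pros1 and Axl; 27.9% of all genes were lower) and Gas6 was higher (25.8% of all genes were higher). The median log2 fold change was -0.38 over the 7 genes and 0.03 over all tested genes. The antibody is the other means of acting on amyloid beta. In anti-Abeta against control 4 of the 7 genes passed, where 29.2% of all genes did: Gas6 was higher (12.7% of all genes) and Pros1, Gulp1 and Gpnmb were lower (16.6% of all genes). The median was -0.22 over the 7 genes and 0.03 over all genes. When control replicate 1 was left out, edgeR called 0 of the 7 in anti-Abeta, with 1 higher and 5 lower at an unadjusted p under 0.05, and 3 in sh-APP. Both comparisons use the same 2 control libraries, so their values are not independent of each other. In sh-APP against anti-Abeta, which uses no control library, 3 of the 7 genes passed, all lower in sh-APP (Gpnmb, Axl and Gulp1), where 26.1% of all genes passed, 16% lower and 10.1% higher. The median there was -0.30 over the 7 genes and -0.01 over all genes. Where groups are said below not to overlap, the share of all genes without overlap was not counted.

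**Figure D1:**
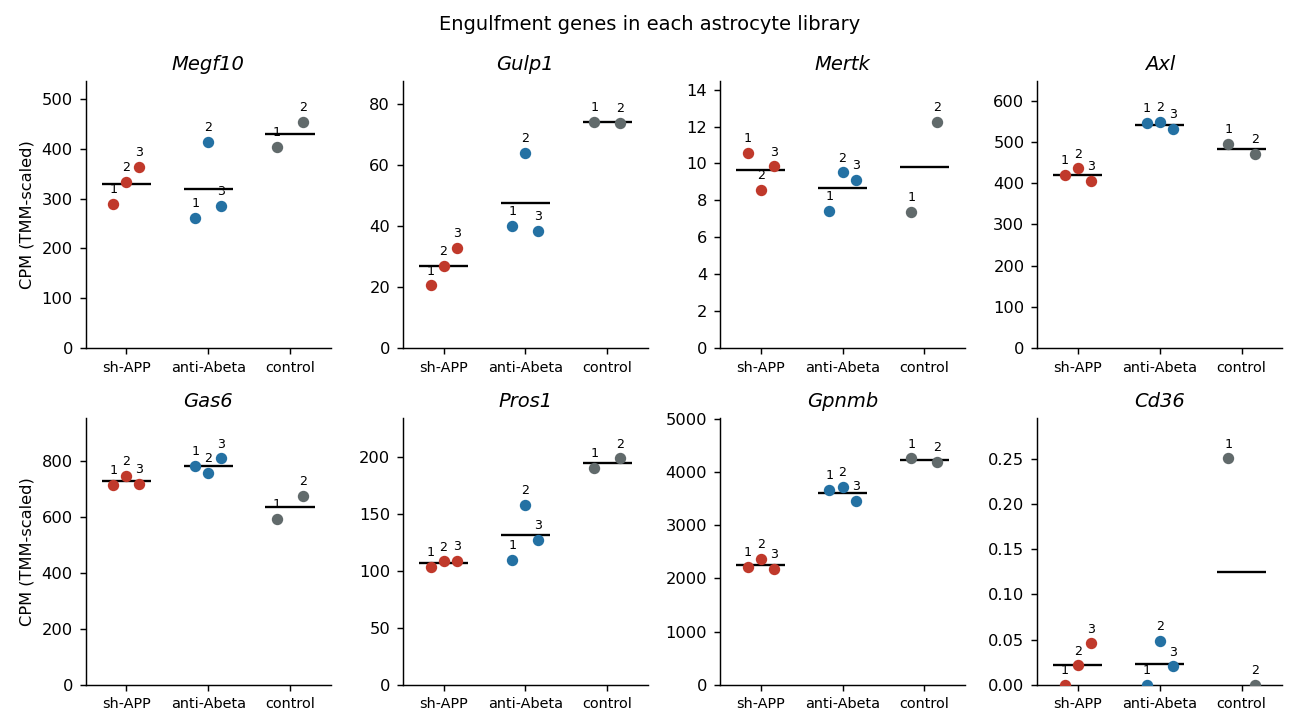
CPM of the 8 engulfment genes (vertical axes, linear from 0, a separate scale for each gene) in each library, with points numbered by replicate and bars at the group mean. Gulp1, Pros1 and Gpnmb are lowest in sh-APP and highest in control libraries, Axl is highest in anti-Abeta libraries, and Cd36 is near 0 in all 8.

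Among receptors, Megf10 stood at 288, 333 and 364 CPM in sh-APP libraries, at 262, 413 and 285 CPM in anti-Abeta libraries, and at 403 and 454 CPM in control libraries. After TMM scaling all 3 sh-APP libraries lay below both controls, whereas anti-Abeta replicate 2 lay between the 2 controls. On library totals alone sh-APP replicate 3 (381 CPM) lay above control replicate 1 (363 CPM). The log2 fold change against control was -0.38 ± 0.16 (SE) in sh-APP, with an edgeR adjusted p of 0.0613, and -0.42 ± 0.16 in anti-Abeta, with an adjusted p of 0.0669. Neither passed. The spread rests largely on anti-Abeta replicate 2: without it the edgeR adjusted p was 0.00415 for sh-APP (log2 fold change -0.38) and 7e-04 for anti-Abeta (-0.66). DESeq2 called Megf10 lower in both arms with all libraries kept (adjusted p = 0.0286 in sh-APP and 0.0222 in anti-Abeta). On library totals alone Megf10 was at -0.18 in sh-APP (edgeR adjusted p = 0.353) and -0.28 in anti-Abeta (adjusted p = 0.2), and leaving out single libraries gave edgeR adjusted p-values of up to 0.333 in sh-APP and 0.312 in anti-Abeta. Between the arms Megf10 differed by 0.04 on the log2 scale (95% interval -0.28 to 0.35). In the later assembly a long non-coding RNA overlaps Megf10, and since no source used here gives the strand setting of the counting, reads of the pair may be mixed.

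Gulp1, the adaptor downstream of Megf10-type receptors, fell furthest of the 7 tested genes. It had 20.6, 27.0 and 33.0 CPM in sh-APP libraries, 40.2, 64.0 and 38.5 CPM in anti-Abeta libraries, and 74.3 and 73.8 CPM in control libraries. No 2 groups overlapped: every sh-APP library was below every anti-Abeta library, and every anti-Abeta library was below both controls. Means were 26.9 ± 6.21 CPM in sh-APP (SD, n = 3), 47.6 ± 14.3 CPM in anti-Abeta (n = 3) and 74.1 ± 0.328 CPM in control libraries (n = 2). Against control the log2 fold change was -1.46 ± 0.21 in sh-APP (SE, edgeR adjusted p = 0.000102) and -0.64 ± 0.21 in anti-Abeta (adjusted p = 0.0379). The 2 arms themselves differed by -0.82 ± 0.19 in edgeR's test (adjusted p = 0.0089), a call lost with no filter on low counts (adjusted p = 0.102). The sh-APP call held under all 18 alternative settings and the anti-Abeta call was lost under 10 of them, including without either control, anti-Abeta replicate 1 or 3, or sh-APP replicate 2 (edgeR adjusted p of 0.0803 to 0.178). A small nuclear RNA overlaps Gulp1 in the later assembly.

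Mertk, the TAM receptor with the widest role in clearance by glia and macrophages, was low and did not pass in any comparison. It had 10.6, 8.55 and 9.84 CPM in sh-APP libraries, 7.42, 9.52 and 9.11 CPM in anti-Abeta libraries, and 7.37 and 12.3 CPM in control libraries. The 2 controls were the lowest and the highest of the 8 libraries, so every other value lay between them. The log2 fold change against control was -0.02 (95% interval -0.48 to 0.43) in sh-APP and -0.18 (-0.63 to 0.28) in anti-Abeta. These libraries do not exclude a change that lies within these intervals.

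Axl was the member in which the arms lay on opposite sides of the control. It had 420, 436 and 404 CPM in sh-APP libraries, 546, 549 and 530 CPM in anti-Abeta libraries, and 496 and 472 CPM in control libraries. After TMM scaling the groups did not overlap, with sh-APP lowest, control between and anti-Abeta highest. On library totals alone sh-APP replicate 2 (454 CPM) lay above both controls (446 and 435 CPM). The direct comparison of the arms passed edgeR's test with a log2 fold change of -0.37 ± 0.06 (SE, adjusted p = 0.00162) and held under all 18 alternatives. Against control, Axl was lower in sh-APP (-0.20 ± 0.07, edgeR adjusted p = 0.0212) and did not pass in anti-Abeta (0.16 ± 0.07, adjusted p = 0.0882). The sh-APP difference depends on the scaling: with library totals alone it was 0.00052, with an edgeR adjusted p of 0.995, and anti-Abeta then passed at 0.31. The sh-APP call was also lost without either control or without sh-APP replicate 1 or 3 (edgeR adjusted p of 0.0501 to 0.155).

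Tyro3, the third TAM receptor and no member of the set, had 61.5, 51.8 and 61.4 CPM in sh-APP libraries, 42.6, 54.0 and 50.3 CPM in anti-Abeta libraries, and 35.5 and 42.9 CPM in control libraries. It was higher in sh-APP than in control (0.57 ± 0.12 on the log2 scale, edgeR adjusted p = 0.002), with no overlap between these groups. In anti-Abeta it did not pass (0.32 ± 0.12, adjusted p = 0.0705). The ratio of Tyro3 to Axl counts within a library cannot be moved by scaling. It was 0.147, 0.119 and 0.152 in sh-APP libraries, 0.0780, 0.0984 and 0.0949 in anti-Abeta libraries, and 0.0716 and 0.0910 in control libraries. The sh-APP ratios were 1.71-fold those of the controls and 1.54-fold those of anti-Abeta libraries, each with a two-sided exact permutation p of 0.1, the smallest that these group sizes allow.

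The scavenger receptor Cd36 was close to absent. Raw counts were 0, 1 and 2 in sh-APP libraries, 0, 2 and 1 in anti-Abeta libraries, and 9 and 0 in control libraries. The limit that a count of 0 allows, 3 counts in a library, is 0.0611 to 0.0856 CPM here, and only control replicate 1 (0.25 CPM) was above it. A fit without the filter on low counts gave edgeR adjusted p-values of 0.333 for sh-APP and 0.416 for anti-Abeta against control.

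**Figure D2:**
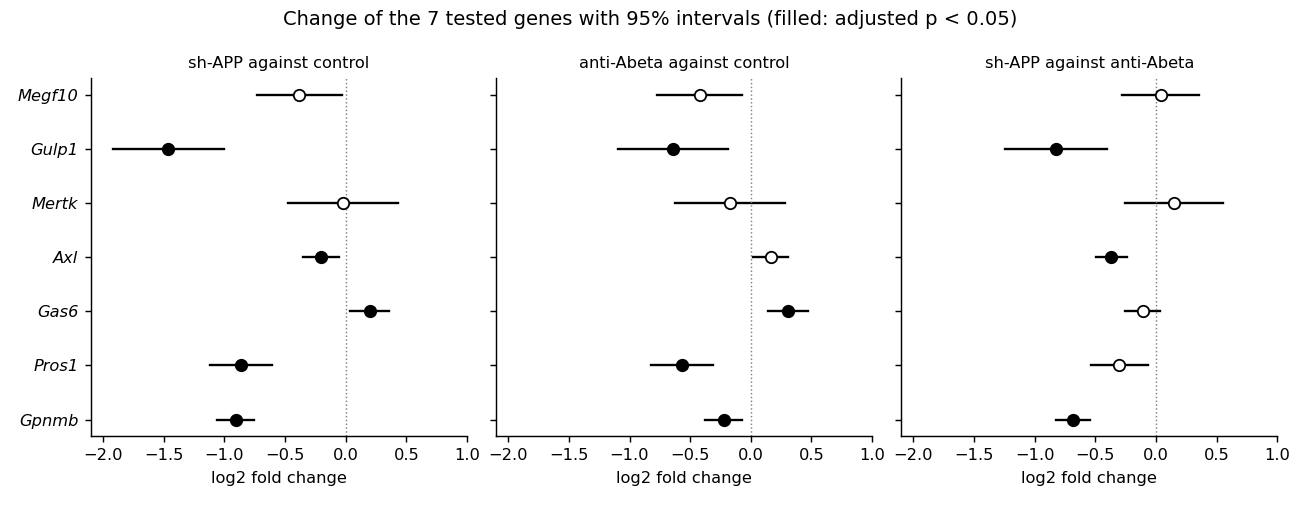
Log2 fold changes (horizontal axes) of the 7 tested genes in each comparison, with 95% intervals from the edgeR fit as lines and filled points where the adjusted p is under 0.05. Gulp1, Pros1 and Gpnmb lie left of 0 against control in both arms, Gas6 lies right of 0, and Axl separates the arms.

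The TAM ligands moved in opposite directions. Gas6 had 716, 749 and 719 CPM in sh-APP libraries, 784, 759 and 811 CPM in anti-Abeta libraries, and 594 and 677 CPM in control libraries. Every library of either arm was above both controls, and after TMM scaling every anti-Abeta library was above every sh-APP library. On library totals alone anti-Abeta replicate 2 (750 CPM) lay below the sh-APP libraries (754 to 781 CPM). The gain over control was small: 0.20 ± 0.07 on the log2 scale in sh-APP (SE, edgeR adjusted p = 0.0423) and 0.30 ± 0.08 in anti-Abeta (adjusted p = 0.0120). The sh-APP call was lost under 9 of 18 alternatives, among them leaving out any sh-APP library, anti-Abeta replicate 1 or 3, or control replicate 1. With that control left out the log2 fold change was 0.11 in sh-APP (edgeR adjusted p = 0.325) and 0.20 in anti-Abeta, which then did not pass either (adjusted p = 0.164). The arms did not pass against each other (-0.11 ± 0.07, edgeR adjusted p = 0.266). Gas6 overlaps the protein-coding gene Tmem255b in the later assembly, so its reads are less certain.

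Pros1 had 103, 108 and 109 CPM in sh-APP libraries, 110, 158 and 127 CPM in anti-Abeta libraries, and 191 and 199 CPM in control libraries. After TMM scaling the groups did not overlap, though sh-APP replicate 3 (108.9 CPM) and anti-Abeta replicate 1 (109.8 CPM) nearly met. On library totals alone sh-APP replicate 2 (113 CPM) and replicate 3 (114 CPM) lay above anti-Abeta replicate 1 (112 CPM). The sh-APP libraries were close together (SD 3.12 CPM, against 24.3 CPM in anti-Abeta). Relative to control the log2 fold change was -0.87 ± 0.12 in sh-APP (SE, edgeR adjusted p = 6.93e-05) and -0.56 ± 0.12 in anti-Abeta (adjusted p = 0.00594). The sh-APP call held in all 18 alternatives, and the anti-Abeta call in all but leaving out control replicate 1 (adjusted p = 0.0629). Between the arms Pros1 differed by -0.30 ± 0.11, which did not pass (edgeR adjusted p = 0.0557) but did without anti-Abeta replicate 1 (-0.42, adjusted p = 0.0101) and in DESeq2 (adjusted p = 0.0336). Without anti-Abeta replicate 2 it was -0.13 (edgeR adjusted p = 0.273).

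The ratio of Gas6 to Pros1 counts shows the split of the ligands without any scaling. It was 6.94, 6.91 and 6.60 in sh-APP libraries, 7.15, 4.81 and 6.36 in anti-Abeta libraries, and 3.11 and 3.40 in control libraries. All 6 libraries of the arms lay above both controls. The ratio was 2.09-fold that of the controls in sh-APP and 1.85-fold in anti-Abeta, each with a two-sided exact permutation p of 0.1, the smallest possible. The ratio of Gas6 to Axl, a ligand and its receptor, was 1.71, 1.72 and 1.78 in sh-APP libraries, 1.44, 1.38 and 1.53 in anti-Abeta libraries, and 1.20 and 1.44 in control libraries. It was 1.32-fold the control value in sh-APP (exact permutation p = 0.1) and 1.10-fold in anti-Abeta (exact permutation p = 0.4). The 3 ratios were chosen after the levels had been seen, and 9 comparisons of ratios were made. The smallest p after Benjamini-Hochberg adjustment over such a family cannot be under 0.1.

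**Figure D3:**
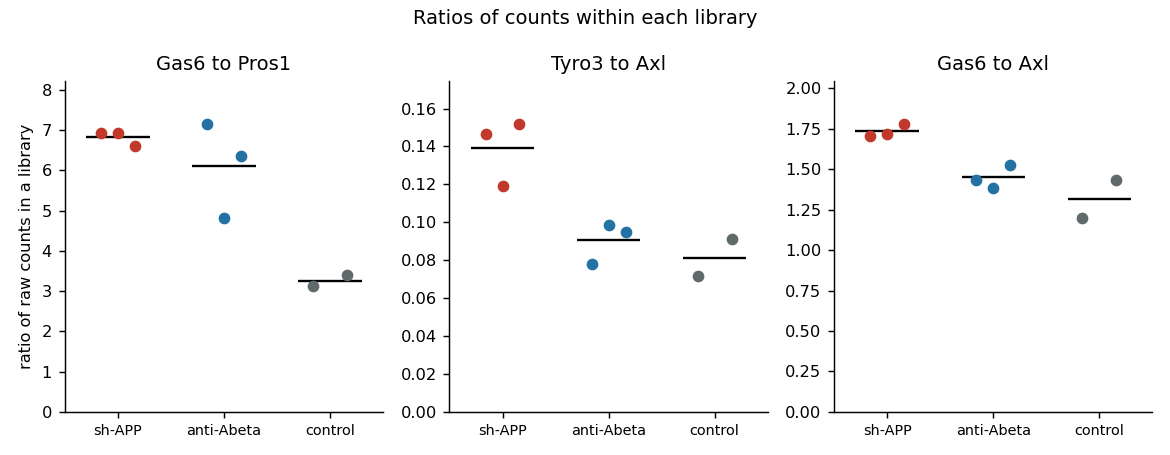
Ratios of raw counts within each library (vertical axes, linear from 0) for Gas6 to Pros1, Tyro3 to Axl and Gas6 to Axl, with bars at the group mean. The Gas6 to Pros1 ratio lies above 4.8 in all libraries of both arms and below 3.5 in both controls, and the Tyro3 to Axl ratio is highest in sh-APP.

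Gpnmb was the most heavily counted of the set, with 94770 to 169371 reads in a library. It had 2210, 2363 and 2170 CPM in sh-APP libraries, 3664, 3713 and 3451 CPM in anti-Abeta libraries, and 4252 and 4184 CPM in control libraries. The 3 groups formed separate bands with no overlap, and the sh-APP libraries lay at about the same level as each other (2248 ± 102 CPM, SD). In sh-APP it fell by 0.91 on the log2 scale relative to control (SE 0.07, edgeR adjusted p = 4.08e-06). In anti-Abeta it fell by 0.22 (SE 0.07, edgeR adjusted p = 0.0335), a call that was lost under 9 of 18 alternatives, including without either control, anti-Abeta replicate 1 or 3, or sh-APP replicate 1 (edgeR adjusted p of 0.0552 to 0.151). On library totals alone it was -0.075 in anti-Abeta (edgeR adjusted p = 0.458). The arms differed by -0.68 ± 0.06 (edgeR adjusted p = 0.000165), and this held under all 18. Since Gpnmb is also a gene of pigment cells, melanocyte markers were read beside it. Their sum was 33.0 to 49.2 CPM in sh-APP, 61.3 to 85.9 CPM in anti-Abeta and 116 to 125 CPM in control libraries, the same order as Gpnmb. Nearly all of that sum was a single gene, Slc24a5, an ion exchanger of melanosomes that overlaps the gene Myef2. The defining pigment genes Tyrp1, Mlana, Dct and Oca2 averaged at most 0.39 CPM in any group, Slc45a2 had no count, and Pmel stood at 0.65, 1.26 and 0.73 CPM in the sh-APP, anti-Abeta and control groups. Whether reads of melanoma cells aligned to these rat genes was not tested.

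The summed level of neuron markers followed the same order as Gpnmb, Gulp1 and Pros1, at 161 to 171 CPM in sh-APP, 232 to 297 CPM in anti-Abeta and 340 to 363 CPM in control libraries. Most of that sum was Map2, at 104, 173 and 246 CPM in those groups, and Snap25, at 23.0, 47.8 and 68.3 CPM. Stmn2 ran the other way, at 8.23, 1.57 and 1.43 CPM. The 11 neuron genes did not move together, since 4 were higher and 4 lower in sh-APP than in control. For this and the lists that follow, 25.8% of all tested genes were higher and 27.9% lower in sh-APP. In anti-Abeta these shares were 12.7% and 16.6%. Genes of proliferation summed to 337 to 457 CPM in sh-APP, 635 to 805 CPM in anti-Abeta and 804 to 864 CPM in control libraries, so that the ranges of anti-Abeta and control libraries just met. Of these 14 genes 13 fell in sh-APP, and 3 fell and 1 rose in anti-Abeta. The sum of endothelial markers ran the other way, at 6.18 to 9.10, 3.88 to 5.67 and 2.59 to 3.17 CPM. So did that of pericyte and fibroblast markers, at 39.5 to 41.8, 33.3 to 39.2 and 27.3 to 30.6 CPM. Of 8 tested markers in the latter list, 2 rose in sh-APP, Pdgfrb (0.92 ± 0.19) and Col1a1 (0.76 ± 0.17), and 0 fell. The median log2 fold change of that list was -0.01. Lum, which did not pass, had 1.01 CPM in sh-APP, 1.43 CPM in anti-Abeta and 2.75 CPM in control libraries. Most of the endothelial sum was Egfl7, at 6.52 CPM in sh-APP, 3.78 CPM in anti-Abeta and 2.55 CPM in control libraries. Egfl7 (1.36 ± 0.31) and Kdr (2.99 ± 1.12, at 0.35 CPM or less in each group) were the 2 of 4 tested endothelial markers that rose in sh-APP. Cldn5 and Cdh5 averaged at most 0.016 CPM in any group. Markers of the oligodendrocyte lineage summed to 3147 to 3302 CPM in sh-APP, 3141 to 3490 CPM in anti-Abeta and 2664 to 2776 CPM in control libraries, so that both arms lay above the controls, as for Gas6. Most of that sum was the factor Olig1, at 2263, 2263 and 1819 CPM in the sh-APP, anti-Abeta and control groups. Of 9 tested lineage markers 1 rose and 1 fell in sh-APP (Pdgfra, -0.998 ± 0.183), and 3 rose in anti-Abeta. Olig1 was higher by 0.32 ± 0.08 in each arm. The part of these differences in the results for the engulfment genes was not tested.

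Of 17 other engulfment receptors tested, 6 rose in sh-APP, where 25.8% of all genes rose, and 11 did not pass. The median log2 fold change was 0.24 over the list and 0.03 over all genes. Over all genes 27.9% fell in sh-APP, and in anti-Abeta 12.7% rose and 16.6% fell. In edgeR 0 of the 17 fell, 2 were lower at an unadjusted p under 0.05, and DESeq2 called 1 lower and limma-voom 0. Without sh-APP replicate 3 edgeR called 2 lower. Those that rose included Itgb5 (0.80 ± 0.09, SE), an integrin subunit that binds the bridge Mfge8. They also included Lrp1 (0.62 ± 0.12), a large endocytic receptor, Scarb1 (0.57 ± 0.08), a scavenger receptor for lipoproteins, and Bai1 (0.80 ± 0.16), a phosphatidylserine receptor now named Adgrb1. In anti-Abeta edgeR called 5 of the 17 higher and 0 lower, and 1 was lower at an unadjusted p under 0.05, with 0 by DESeq2 and by limma-voom. The 5 were Pear1 (0.43), Scarb1 (0.29), Bai1 (0.54), Scarf2 (0.70) and Itgb5 (0.27). These 5 calls rest on the controls, since without control replicate 1 edgeR called 0, with 2 higher at an unadjusted p under 0.05, and without control replicate 2 it called 1. Without anti-Abeta replicate 3 the count was 2.

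Of 12 other bridging and eat-me molecules tested, 9 rose and 2 fell in sh-APP (25.8% and 27.9% of all genes), with a median of 0.29. Mfge8, the bridge to integrins that astrocytes are known to secrete, had 354, 367 and 332 CPM in sh-APP libraries, 376, 353 and 390 CPM in anti-Abeta libraries, and 289 and 287 CPM in control libraries. Both arms lay above the controls, by 0.29 ± 0.07 on the log2 scale in sh-APP (SE, edgeR adjusted p = 0.00559) and 0.37 ± 0.07 in anti-Abeta (adjusted p = 0.00473). Its near relative Edil3 fell instead, to 25.2 ± 3.75 CPM in sh-APP and 42.5 ± 3.92 CPM in anti-Abeta, against 58.0 ± 8.0 CPM in control libraries (SD). The annexins also split: Anxa2 rose in sh-APP by 0.66 ± 0.09, and Anxa1 fell by 0.45 (SE 0.08). Thbs2, a thrombospondin, rose by 1.47 ± 0.26. The count of 9 fell to 6 without sh-APP replicate 1 or control replicate 1, and to 3 without control replicate 2. In anti-Abeta 1 of the 12 rose (Mfge8) and 2 fell (Anxa1, -0.29, and Edil3, -0.45), beside 12.7% higher and 16.6% lower over all genes. Without control replicate 1 edgeR called 0 of them, with 2 higher and 1 lower at an unadjusted p under 0.05, and Mfge8 then had an adjusted p of 0.0601. The 2 lower calls were lost without anti-Abeta replicate 1 or 3, and with library totals alone 6 were higher and 0 lower in anti-Abeta.

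**Figure D4:**
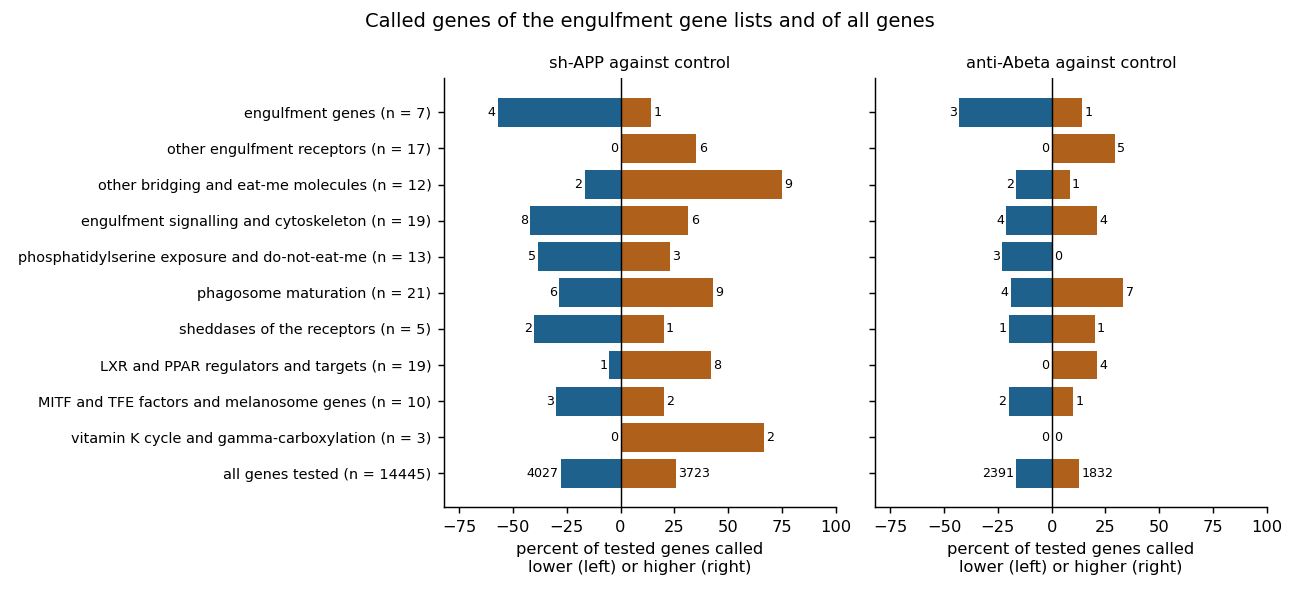
Percent of the tested genes of each list that passed edgeR's test as lower (left of 0) or higher (right of 0), with the number of genes at each bar, in both arms against control. In sh-APP 9 of the 12 other bridging molecules and 6 of the 17 other receptors were higher, whereas of the 7 tested members of the set 4 were lower and 1 higher.

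Of 19 genes that carry the signal from receptors to actin, 6 rose and 8 fell in sh-APP, where 25.8% of all genes rose and 27.9% fell, with a median of -0.22. Those that fell included the GTPase Cdc42 (-0.87 ± 0.10, SE), the exchange factor Vav3 (-1.04 ± 0.12) and Wasl (-1.21 ± 0.15), the neuronal form of the Wiskott-Aldrich protein that drives actin branching. Dnm2, a dynamin of membrane scission, rose by 0.51 ± 0.07. In anti-Abeta 4 rose and 4 fell (12.7% and 16.6% of all genes), Cdc42 (-0.54) and Wasl (-0.59) among those lower. Without control replicate 1 edgeR called 0 of the 19 in anti-Abeta, with 3 higher and 4 lower at an unadjusted p under 0.05, and without control replicate 2 it called 4 higher and 1 lower. The split depends on the scaling, with 7 higher and 5 lower in sh-APP on library totals alone.

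Genes that set the display of phosphatidylserine or the signals against being eaten gave 3 higher and 5 lower of 13 in sh-APP, beside 25.8% higher and 27.9% lower over all genes. Among the lower ones were Tmem30a (-1.34 ± 0.12), the shared subunit of the flippases that return phosphatidylserine to the inner leaflet, and the flippase Atp11b (-1.08 ± 0.11). Cd47, the signal that inhibits engulfment, was lower by the same test (-0.54 ± 0.08), whereas its receptor Sirpa was higher (0.46). In anti-Abeta Tmem30a (-0.74), Atp11b (-0.55) and Cd47 (-0.37) fell, and 1 gene of the list passed as lower without control replicate 1. As higher, 0 of the 13 were called there by edgeR, DESeq2 or limma-voom, 0 at an unadjusted p under 0.05 in edgeR, but 4 with library totals alone. Over all genes edgeR called 12.7% higher and 16.6% lower in anti-Abeta.

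Of 21 genes of phagosome maturation 9 rose and 6 fell in sh-APP, with a median of 0.07, and over all genes 25.8% rose and 27.9% fell. The small GTPases Rab14 (-1.17 ± 0.10, SE) and Rab5a (-0.77 ± 0.08) fell, as did the lysosomal membrane protein Lamp2 (-0.77 ± 0.09). The autophagy gene Map1lc3a rose by 0.85 ± 0.09. In anti-Abeta 7 rose and 4 fell, with Rab5a at -0.58, Rab14 at -0.61 and Lamp2 at -0.54. Over all genes 12.7% rose and 16.6% fell in that arm. Without control replicate 1 edgeR called 0 higher, with 4 at an unadjusted p under 0.05, and 3 lower. The higher calls numbered 3 without anti-Abeta replicate 3, and 4 without anti-Abeta replicate 2 or control replicate 2. On library totals alone the sh-APP split was 12 higher and 3 lower.

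Among the 5 genes of ectodomain shedding, Adam10 (-0.68 ± 0.11) and Adam17 (-0.43 ± 0.08), proteases that cut TAM receptors from the cell surface, fell in sh-APP. Rhbdf1, a rhomboid-like partner of Adam17, rose by 0.46 ± 0.09. Over all genes 25.8% rose and 27.9% fell in sh-APP, and 12.7% and 16.6% in anti-Abeta. In anti-Abeta Adam10 (-0.35) and Rhbdf1 (0.32) passed, and neither did without control replicate 1 or without anti-Abeta replicate 3.

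In macrophages the nuclear receptors LXR and PPAR raise Mertk and Cd36. Of 19 such receptors, partners and targets, 8 rose and 1 fell (Lpl, lipoprotein lipase, -0.95) in sh-APP, with a median of 0.30, where 25.8% of all genes rose and 27.9% fell. Srebf1, the lipid synthesis factor that LXR induces, rose by 1.07 ± 0.10, and Angptl4, a PPAR target, by 1.01 ± 0.11. The list did not move as a whole: 10 of the 19 did not pass, among them Abcg1 (0.30 ± 0.37), Mylip (-0.32 ± 0.37) and Pdk4 (-0.21 ± 0.19). The receptors Nr1h2 (LXR beta, 0.79 ± 0.09) and Ppard (0.66 ± 0.12) rose too, beside a Mertk that did not pass and a Cd36 near 0. The call of Lpl was lost without sh-APP replicate 1, sh-APP replicate 2 or control replicate 2. In anti-Abeta 4 rose, with Nr1h2 at 0.57 and Srebf1 at 0.44, and 1 passed without control replicate 1. As lower, 0 were called there by edgeR, DESeq2 or limma-voom, and 0 at an unadjusted p under 0.05 in edgeR. Over all genes edgeR called 12.7% higher and 16.6% lower in anti-Abeta.

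MITF and its relatives are the known drivers of Gpnmb in pigment cells and macrophages. Of 10 tested genes of that family and of melanosomes, 2 rose in sh-APP, Tfe3 (0.63 ± 0.11) and Tfeb (0.70 ± 0.14), and 3 fell, Mitf (-0.62 ± 0.15), Slc24a5 (-1.74 ± 0.16) and Rab38 (-0.42). These counts are close to the shares over all genes, 25.8% higher and 27.9% lower. In anti-Abeta Tfe3 rose (0.36) and Slc24a5 (-0.86) and Rab38 (-0.43) fell, where 12.7% of all genes rose and 16.6% fell. Without control replicate 1 edgeR called 0 of them, with 4 lower at an unadjusted p under 0.05, and Slc24a5 was the 1 call left without anti-Abeta replicate 1, anti-Abeta replicate 3 or control replicate 2. Gas6 and Pros1 need vitamin K for the modification that lets them bind phosphatidylserine. Of 3 tested genes of that cycle, Nqo1 (0.95 ± 0.12) and the reductase Vkorc1 (0.31 ± 0.08) were higher in sh-APP, Vkorc1 losing its call without control replicate 2 (edgeR adjusted p = 0.0829). In anti-Abeta 0 of the 3 passed by edgeR, DESeq2 or limma-voom, and 0 at an unadjusted p under 0.05 in edgeR.

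Genes whose pattern over the 8 libraries was most like that of each called member were ranked by the root mean square difference of centred log2 CPM, among 10076 genes. The nearest to Gas6 was Mcm2 (0.04), followed by Rcc1 and Slc9a3r2. The nearest to Axl was Usp54 (0.05). Pros1 was nearest to RGD1310553 (0.05), Rybp and Fam49b, and Gpnmb to Cttnbp2nl (0.06), Slc1a1 and Acsl3. For Gulp1 the nearest were LOC500584 (0.09), Eif1ax and Fundc1. Between the 7 tested members themselves the closest pair was Axl and Gas6 (0.18), and the farthest was Gas6 and Gulp1 (0.71). Each nearest gene was the closest of 10076, whereas a fellow member came from the 7 tested ones, so these distances cannot be set against each other.

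**Figure D5:**
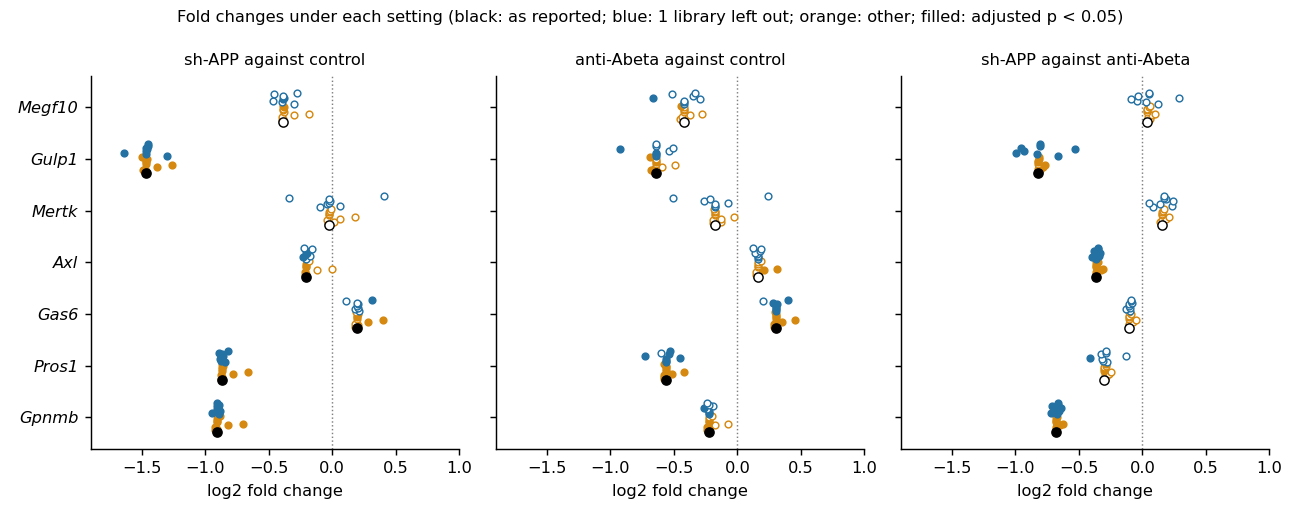
Log2 fold change (horizontal axes) of each tested gene as reported (black), with 1 library left out (blue) and under the other alternatives (orange), filled where the adjusted p is under 0.05. Pros1, Gulp1 and Gpnmb stay left of 0 and filled in sh-APP against control, whereas Axl and Gas6 lie near 0 and change between filled and open.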

How the data were processed

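The authors deposited raw counts per gene symbol for 8 libraries. The submitters' processing notes name the aligner STAR 2.6.0a, the counter HTSeq 0.11.1, the build rn6, and besides these DESeq2 1.24.0, SAMtools 1.9, Trimmomatic 0.36 and FastQC 0.11.7. The sources used here name neither the library kit nor the strand setting. Of 28546 entries 8853 held no count, and 0 value columns were left unused.

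All 8 libraries were fitted together in edgeR 4.0.16 under R 4.3.3, with a term for group only and 5 residual degrees of freedom. Entries were kept by filterByExpr (minimum count 10, minimum total 15), scaled by TMM, and tested with the robust quasi-likelihood test with Benjamini-Hochberg adjustment over 14445 entries at 0.05. Each SE is the size of the log2 fold change over the root of its F statistic. Alternatives included DESeq2 1.42.0, limma-voom (limma 3.58.1), other scalings and filters, a replicate block, and the removal of each library in turn. Ratios were compared with exact permutation tests. The fits were tested on simulated data.

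The genes and lists were chosen with earlier results of these data known. The text names all 8 genes, Tyro3, Mfge8, from each list the 4 called genes with the smallest p in sh-APP against control, members of counts of 5 or fewer, and the 3 nearest genes of each called member at a mean of at least 5 CPM, and marker genes with their levels. Some results under this rule are not reported here. Tmem255b and Myef2 are named for their overlap, from RefSeq on GRCr8. Abcg1, Mylip and Pdk4 are named as list genes that did not pass. The counts of each list without a library or under another scaling, and the ratios, were added after the data were seen.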

Additional observations from a re-analysis of the deposited data

Results flagged for a closer look

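For 3 genes the effect of the sh-APP arm and that of the anti-Abeta arm differed from each other in edgeR's test of that difference, over 3 libraries in each arm. The difference was -0.37 for Axl, -0.82 for Gulp1 and -0.68 for Gpnmb on the log2 scale, sh-APP minus anti-Abeta. In each of these genes every sh-APP library lay below every anti-Abeta library. The genes were picked by a test on these same libraries, so this separation adds no support. Of all tested genes 26.1% passed this test, 16% as lower in sh-APP, and the share of all genes without overlap was not counted. Each of these groups also differed in its melanocyte, neuron and proliferation marker sums, and the part of these in the differences was not tested.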

How the results depend on the processing

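Over the 7 tested genes and 3 comparisons, 18 alternatives each gave 316 values with the same direction and side of the threshold, 37 that lost the call, 15 that gained it and 10 of opposite sign. In sh-APP against control Mertk changed sign under limma-voom (0.011), upper-quartile factors (0.060), library totals alone (0.18) and on leaving out libraries (-0.34 to 0.41), and Axl under library totals alone (0.00052). Leaving out libraries also turned Mertk in anti-Abeta against control (-0.51 to 0.24) and Megf10 in sh-APP against anti-Abeta (-0.087 to 0.29). None of these values passed. The number of the 7 genes called ranged over 3 to 6 in sh-APP and 0 to 5 in anti-Abeta against control when a library was left out, and was 2 in anti-Abeta with only the groups compared. Without control replicate 1 no member passed edgeR's test in anti-Abeta, with adjusted p-values of 0.164 for Gas6, 0.0629 for Pros1, 0.178 for Gulp1 and 0.151 for Gpnmb, and 1 was higher and 5 lower at an unadjusted p under 0.05. Over all genes, leaving out libraries gave 439 to 4775 calls in anti-Abeta against control and 2233 to 3582 in sh-APP against anti-Abeta. With library totals alone the median of all genes moved to 0.23 in sh-APP and 0.18 in anti-Abeta, against 0.03 in each. The calls were then 5174 higher and 3091 lower in sh-APP, against 3723 and 4027, and 3590 higher and 1417 lower in anti-Abeta, against 1832 and 2391. The cause was not tested.

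With the replicate block 4 members were called in sh-APP and 4 in anti-Abeta, each against control, and 4 in sh-APP against anti-Abeta, where 5, 4 and 3 were called without it, and 7328, 3480 and 3675 of all genes. Libraries of different groups with the same number correlated at -0.01 to 0.11, and those with different numbers at -0.11 to 0.03. The highest values were sh-APP with anti-Abeta replicate 1 (0.105) and sh-APP with anti-Abeta replicate 2 (0.098). With 2 controls, their deviations mirror each other, so their correlations carry little on pairing. The numbers were not read as pairs, but these values do not settle whether they are.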
